A study of Homo sapiens with 6 samples.

Results

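PAR-CLIP libraries of the RNA-binding protein HuR were compared, gene by gene, with libraries of a control protein that is not known to bind RNA. The comparison addressed which transcripts, and which regions of a transcript, carried more reads with HuR and which carried more in background. It used 5 of the 6 libraries of the series, namely HuR replicates 1 and 2 and the background slices G20, G35 and G45, and the library of total RNA was not used. All came from HEK293, an established human embryonic kidney line, and per the methods the cells stably carried a doxycycline-inducible HuR or GFP (green fluorescent protein) and received doxycycline. Every group was therefore grown with doxycycline and with the uridine analog 4SU, irradiated with UV light at 365 nm, digested with RNase T1 and precipitated with the FLAG M2 antibody. The GFP lane of the gel was cut at about 20, 35 and 45 kDa, and each slice was 1 library. The slices differ in size range and were not treated as replicates of one another, while HuR had 2 replicates. The cells of the 2 groups differed in the induced protein as well as in the protein pulled down, and the GFP cells still had their own HuR gene. Whether the HuR replicates were separate cultures is not given in the sources used here, so p-values measure only the spread between these 2 libraries, which may be technical.

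HuR, encoded by ELAVL1, belongs to the Hu family of proteins and is known for binding U-rich and AU-rich elements in the 3' UTRs of mRNAs, many of which encode regulators of growth, the cell cycle and cell death. Binding there is known to affect the stability and the translation of the mRNA, and HuR also binds introns of unspliced transcripts in the nucleus. In PAR-CLIP the RNA fragment that is crosslinked to the protein is sequenced, and reverse transcription across a crosslinked 4SU reads a T as a C. The measurements for a gene were therefore its reads, the place of the reads within the gene, and its T-to-C conversion events per 100 reads. In such data the abundance of an RNA and the protein bound to each copy cannot be told apart.

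Reads at sites inside ribosomal RNA loci made up 87.5% of G20, 23.1% of G35 and 25.2% of G45, compared to 1.24% and 3.05% of HuR replicates 1 and 2. Levels are given as RPM, reads scaled to 1000000 reads outside these loci and outside the mitochondrial genome. Those reads numbered 4443872 in G20, 4741515 in G35, 5611290 in G45, 9400725 in HuR replicate 1 and 31112350 in HuR replicate 2, so that a count of 3 reads corresponded to between 0.0964 and 0.675 RPM. In total, 19937 of 37976 protein-coding and long noncoding RNA (lncRNA) genes had 50 or more reads over the 5 libraries and were tested. The HuR replicates were unlike in part: the median gene was 0.93 higher in replicate 2 on a log2 scale with an SD of 1.57 over genes, and reads in genes carried 61.4 events per 100 in replicate 1 and 97.9 in replicate 2. G20 stood apart among the slices, with 23.9% of its genic reads in coding sequence against 11.8% in G35 and 9.04% in G45. Because a level depends on what the reads are scaled to, the first comparison below is one that no scaling can change.

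Most reads in genes were intronic, with 59.1, 79.1 and 82.4% in the slices and 82.9 and 83.9% in the HuR replicates. Sites overlapping annotated small RNAs held 6.45, 2.51 and 2.20% of the genic reads in the slices and 0.264 and 0.339% with HuR. Among the reads in 3' UTRs and coding sequence, those of HuR lay mostly in the 3' UTR, whereas background reads were divided between both. The 3' UTR share of a gene, its 3' UTR reads as a percent of its 3' UTR and coding reads, was taken for the 975 genes with 20 or more such reads in each library. Its median was 33.2%, 58.3% and 59.5% in G20, G35 and G45, compared to 90.8% and 94.2% in HuR replicates 1 and 2. In 638 of the 975 genes (65.4%) both HuR libraries were above every slice, and in 7 genes (0.718%) both were below. The 7 genes were UBE2W, NPFFR1, TMEM135, KLHL33, TMEM107, VMP1 and KCNH6, and they differed little, since no library had a share under 94.6%. No test was made of these counts, since each slice is a single library. The share uses reads of a single gene in a single library, so the library total drops out.

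**Figure D1:**
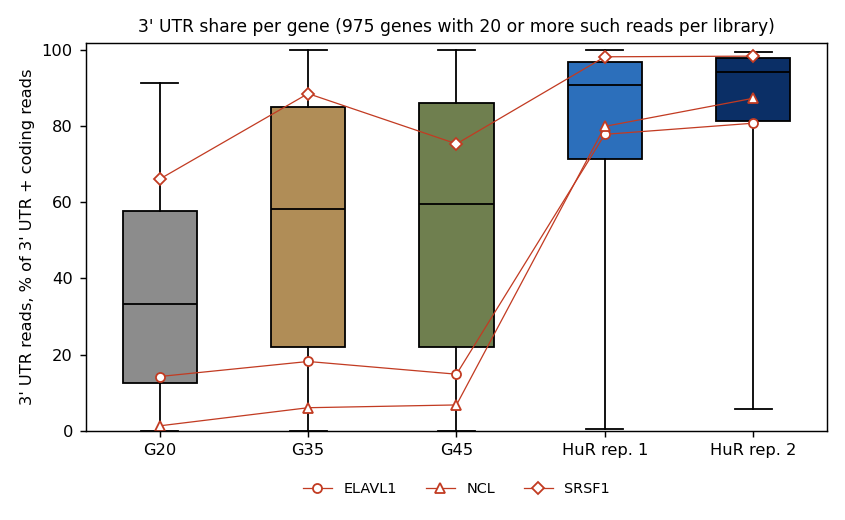
3' UTR reads as a percent of 3' UTR and coding reads of a gene (y axis) in each library (x axis), for 975 genes. Boxes span the middle 50% of genes, the line in each box is the median, whiskers reach the 5th and 95th percentiles, and red lines join the values of 3 named genes. The medians are 33.2, 58.3 and 59.5% in the slices and 90.8 and 94.2% in the HuR replicates, and the whiskers show that some genes had a low share in every library.

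Among the 15 genes with the widest gap between the lowest HuR share and the highest slice share, CDK12, a kinase that phosphorylates RNA polymerase II, led. Its 3' UTR held 4.70%, 5.13% and 3.33% of these reads in G20, G35 and G45, and 85.9% and 88.1% in the HuR replicates. PCBP1, a poly(C)-binding protein, had 14.6%, 20% and 8.33% in the slices and 94.6% and 97.6% with HuR. For NCL, which encodes the nucleolar protein nucleolin, the shares were 1.26%, 6.02% and 6.76% in the slices and 80% and 87.4% with HuR. In each of these genes the groups were far apart, and every slice lay at or under 20%. HNRNPU, a nuclear RNA-binding protein, had 8.30%, 28.0% and 19.7% in the slices and 96.4% and 92.9% with HuR. EIF5, a translation initiation factor, had 25.2%, 31.8% and 30.3% in the slices and 100% and 99.1% with HuR. In these genes, too, the HuR replicates were close to each other and far above every slice. The remaining genes of the 15 were PHAX, MDC1, EZR, CSTF2T, AKAP12, TPP2, BTBD3, SUPT5H, QSER1 and IRS4, with gaps between 64.8 and 75.5 points.

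The mRNA of HuR itself showed the same contrast. ELAVL1 had a 3' UTR share of 14.2%, 18.2% and 14.8% in G20, G35 and G45, and of 77.9% and 80.8% in HuR replicates 1 and 2. Its 3' UTR level was 8.33, 3.8 and 4.10 RPM in the slices and 22.1 and 64.1 RPM with HuR, and its coding sequence had 50.2, 17.1 and 23.5 RPM in the slices and 6.28 and 15.2 RPM with HuR. The groups did not overlap in either region and lay in opposite order. Over the whole gene ELAVL1 had 99.7, 27.6 and 40.1 RPM in the slices and 42.9 and 103 RPM with HuR, so that both HuR libraries lay above G35 and G45 but only replicate 2 lay above G20. The HuR cells also carried the induced HuR transgene, whose coding reads cannot be told apart from those of the ELAVL1 gene in these tables.

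Sequences at single sites, picked for their levels, illustrate the contrast and do not test it. For 4 genes with high 3' UTR levels in HuR, for SAMD8 and for ELAVL1, the 30 bases around the middle of a 3' UTR site are given, followed by coding sites of ELAVL1, EEF2, FASN and IRS4. The 3' UTR sites are those with the highest level in the lower of the 2 HuR libraries, and the coding sites are those with the most reads in G20. The genes were picked, from those named by the stated rules, after their values were seen, and only HuR sites with a marked motif are shown. The corresponding 3' UTR sites of XPO4, RAB11FIP2, TMTC3, ZNF529 and EIF2S3 held neither motif in this window. Sequences are in the transcript's 5′ to 3′ direction from GRCh37/hg19, and capitals mark runs of 5 or more T and the pentamer ATTTA.
ELAVL1 3' UTR, minus strand, chr19:8028206-8028235: ggTTTTTatactctgggatgcaaccgacat
DR1 3' UTR, plus strand, chr1:93827147-93827176: ttgtagttatagtttacttattgTTTTTag
NHLRC2 3' UTR, plus strand, chr10:115670498-115670527: caTTTTTTagactctattccccttcatttg
AGFG1 3' UTR, plus strand, chr2:228420255-228420284: tcagTTTTTTTctttcTTTTTTTgggcaaa
AKAP11 3' UTR, plus strand, chr13:42894789-42894818: aggataaatcacTTTTTTTggggactttga
SAMD8 3' UTR, plus strand, chr10:76937540-76937569: ctATTTAgtcttaatttggcagtcaggaag
ELAVL1 coding, minus strand, chr19:8056646-8056675: atggccgaagactgcaggggtgacatcggg
EEF2 coding, minus strand, chr19:3977967-3977996: cagcgggcgcgctacctggccgagaagtac
FASN coding, minus strand, chr17:80045274-80045303: tcggccaagcacggcctgtacctgcccacc
IRS4 coding, minus strand, chrX:107977905-107977934: agatggccagggcaccgcaggtgggcacgg
At the ELAVL1 3' UTR site, 20 and 156 reads were found in HuR replicates 1 and 2, with 6 reads in G20 and 0 in G35 and G45. Counts at sites are not scaled, and the reads used for scaling numbered 9400725 and 31112350 in the HuR replicates and 4443872 in G20. At the DR1 site, HuR had 66 and 461 reads and the slices 1, 2 and 0. The AGFG1 and NHLRC2 sites had no read in any slice. Every one of these 6 sites had at least 10 reads in both HuR libraries and at most 6 in a slice, but they were chosen by their HuR level. At the ELAVL1 coding site, the order was different, with 54 reads in G20, 5 in G35, 21 in G45, and 1 and 77 in the HuR replicates. The EEF2 coding site had 890, 13 and 15 reads in G20, G35 and G45 and 1 and 20 with HuR, and the FASN coding site had 64 reads in G20 and 0 in every other library. T made up 10 to 18 of the 30 bases at the 3' UTR sites shown and 2 to 4 at the coding sites shown. The marked motifs required of the 3' UTR sites are themselves rich in T, so this difference follows in part from the choice. Sites of other leading genes chosen in the same way came closer to each other, with 9 T in the 3' UTR of EIF2S3 and 6, 7 and 9 T in the coding sequence of PDS5A, ENO1 and ADGRG6.

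Levels of whole regions followed the same order. When only reads in 3' UTRs were counted, 2875 of 6907 genes with 50 or more such reads (41.6%) were higher in both HuR libraries than in every slice, and 192 (2.78%) were lower. For coding sequence the order was the opposite, with 36 of 5191 genes (0.694%) higher and 1926 (37.1%) lower. Introns were closer to 3' UTRs, with 7976 of 17498 genes (45.6%) higher and 1200 (6.86%) lower. Of 3606 genes with enough reads in both regions, 1500 had a 3' UTR above every slice and 1266 had a coding sequence below every slice. Both held in 339 genes, and 0 had the reverse. A reverse could hardly occur, since so few coding sequences were higher and so few 3' UTRs lower. Whether the 339 genes are more or fewer than the separate counts of 1500 and 1266 would give was not tested. They are therefore not a sign that the regions of a gene were linked. With TMM factors, which equalise the bulk of genes, the 3' UTR count fell to 1750 and the coding count rose to 3105, and without HuR replicate 1 the 3' UTR count was 5206. When each site was counted once, whatever its reads, fewer genes had 50 or more, and 232 of 2194 3' UTRs (10.6%) were above and 642 of 703 coding sequences (91.3%) were below every slice.

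The 3' UTRs that stood furthest above the slices were those of XPO4, RAB11FIP2, DR1, NHLRC2, TMTC3, ZNF529, AKAP11, AGFG1, EIF2S3 and TMEM65. DR1, a repressor of transcription that binds TBP, had 4.73, 3.8 and 3.03 RPM in its 3' UTR in the slices and 31.2 and 89.7 RPM with HuR. XPO4, a nuclear export receptor, had 2.25, 1.48 and 2.49 RPM in the slices and 17.8 and 36.5 RPM with HuR. EIF2S3, a subunit of the initiation factor eIF2, had 4.73, 0 and 1.25 RPM in the slices and 27.3 and 69.9 RPM with HuR. For all of them the HuR replicates differed by less than the groups did, but none passed the edgeR quasi-likelihood test, in which no 3' UTR had an adjusted p under 0.05 against any slice. At an unadjusted p under 0.05 there were 127 3' UTRs against G20, 10 against G35 and 2 against G45, and all of them were lower in HuR. With other settings the 3' UTRs called against G20 were mostly lower as well, 37 of 37 when scaled to reads in genes and 222 of 224 by DESeq2. The 3' UTRs furthest below the slices were led by TTC8, CCDC127, SRPX2 and ARL6IP6, and included DROSHA, the nuclear nuclease of microRNA processing. DROSHA had 513, 1252 and 747 RPM there in the slices and 140 and 105 RPM with HuR.

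Coding sequences were tested in the same way. Against G20, 2541 of 5191 coding sequences (49%) were lower in HuR and 23 (0.443%) were higher at an adjusted p under 0.05 by edgeR. Against G35 and G45 none passed, with 452 and 320 at an unadjusted p under 0.05. The 2541 coding sequences together held 60626, 6053 and 5248 RPM in G20, G35 and G45, and 1184 and 1906 RPM in the HuR replicates. G20 was thus the highest library by a wide margin, and 1504 of the 2541 were lower in both HuR libraries than in all slices. All 23 that were higher had more reads in HuR replicate 1 than in replicate 2, where 18 had under 4 reads and 10 had none, so they rest on that library. With TMM factors computed within coding sequence 0 were called, and DESeq2 called 35 higher and 0 lower. Why the settings differ was not tested. The calls thus depend on the setting, and the median log2 HuR over G20 of all coding sequences tested was -3.55.

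The coding sequences furthest below the slices included those of abundant mRNAs. EEF2, the elongation factor that moves the ribosome along the mRNA, led and had 1105, 67.7 and 65.4 RPM in its coding sequence in G20, G35 and G45, and 3.94 and 7.68 RPM with HuR. Its log2 HuR over G20 was -7.57 ± 3.60 (SE), which did not pass the edgeR test (adjusted p = 0.067). FASN, the fatty acid synthase, had 249, 29.9 and 23.5 RPM in the slices and 1.60 and 3.63 RPM with HuR, with a log2 of -6.56 ± 2.73 (edgeR adjusted p = 0.037). In both genes the lowest slice was over 5 times the highest HuR library, and the order of the slices was the same. NCL coding sequence had 299.5, 32.9 and 24.6 RPM in the slices and 1.17 and 6.07 RPM with HuR, with a log2 of -6.35 ± 2.79 (edgeR adjusted p = 0.047). ENO1, the glycolytic enolase, had 171, 21.5 and 20.0 RPM in the slices and 1.17 and 4.85 RPM with HuR, and passed as well (edgeR adjusted p = 0.043). PELP1, ZNF469, IRS4, MTBP, ADGRG6 and PDS5A were the remaining leading genes and did not pass.

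mRNAs with AU-rich elements that are known targets of HuR were taken first among the gene lists, and they carry cell-cycle, growth and survival functions. Of 29 listed genes, 26 had enough 3' UTR reads, of which 12 were above every slice in both HuR libraries and 1, PTGS2, was below, which is near the 41.6% and 2.78% of all 3' UTRs tested. Their median log2 HuR over slice in the 3' UTR was 1.91 for G20, 2.81 for G35 and 2.56 for G45, beside 1.45, 3.01 and 2.86 over all 3' UTRs tested. The list thus lay above the median 3' UTR against G20 and below it against G35 and G45. In coding sequence 0 of 19 were above and 11 were below every slice, beside 0.694% and 37.1% of all coding sequences, and 12 of 19 were lower than G20 by the edgeR test, beside 49%. Where the 3' UTR share could be taken it was above every slice in 12 of 13 genes, beside 65.4% of all genes compared, the exception being MDM2, whose G45 share was 100%.

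XIAP, an inhibitor of caspases, had 6.75, 10.1 and 5.17 RPM in its 3' UTR in the slices and 19.7 and 83.2 RPM with HuR. HIF1A, the oxygen-sensing transcription factor, had 0.225, 1.90 and 1.78 RPM in the slices and 5.85 and 26.0 RPM with HuR. Neither gene's groups overlapped, although the HuR replicates differed from each other by a larger factor than replicate 1 differed from the highest slice. CCNB1, a cyclin of mitosis, had 0.900, 1.48 and 1.25 RPM in the slices and 4.04 and 16.5 RPM with HuR, and EIF4E, the cap-binding protein, had 0.225, 0.633 and 1.60 RPM and 2.55 and 31.5 RPM. CDKN1B, MDM2, BCL2, CTNNB1, CCNA2, NCL and ELAVL1 were also above every slice. In MYC, VEGFA and JUN the groups overlapped in the 3' UTR, since HuR replicate 1 lay under every slice and replicate 2 did not, with replicate 1 at 0.319, 2.87 and 2.66 RPM. Their coding sequences were lower than G20 by edgeR, with a log2 of -4.58 for MYC (adjusted p = 0.014), -5.39 for VEGFA (adjusted p = 0.0072) and -6.64 for JUN (adjusted p = 0.0074).

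**Figure D2:**
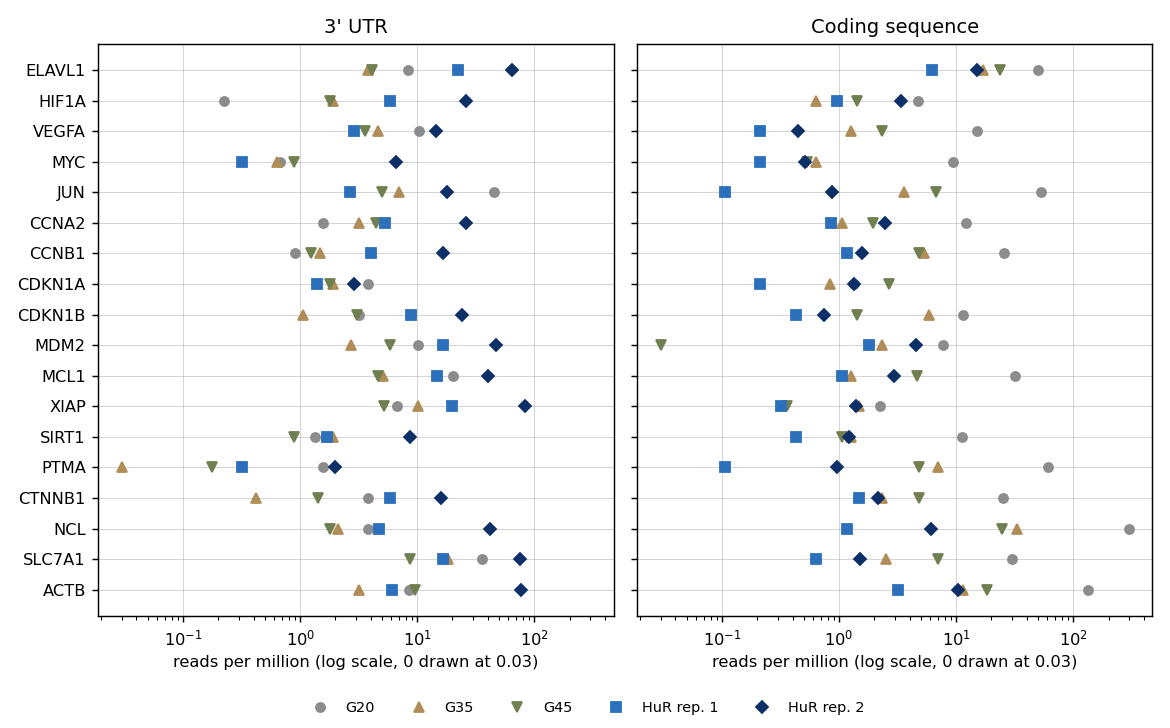
RPM (x axis, log scale) in the 3' UTR (left) and the coding sequence (right) of 18 listed HuR target mRNAs tested in both regions (rows), with 1 point per library and values of 0 drawn at 0.03. In the 3' UTR the blue points of HuR tend to lie to the right of the slices, as for ELAVL1 at 22.1 and 64.1 RPM, and in coding sequence G20 lies furthest to the right for all genes shown other than CDKN1A, as for NCL at 299.5 RPM.

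Genes for other RNA-binding proteins followed. Of 14 other ARE-binding proteins, 12 had enough 3' UTR reads and 7 of them were above every slice, among them HNRNPD (AUF1), TIA1, TIAL1, CELF1, PCBP1, PCBP2 and ZFP36L1. HNRNPD had 4.50, 0.633 and 0.713 RPM in its 3' UTR in the slices and 15.8 and 33.6 RPM with HuR, while its coding sequence had 47.9, 2.95 and 1.96 RPM and 0.638 and 2.19 RPM. Of 22 hnRNP genes, which package nuclear RNA, 11 were above every slice in the 3' UTR and 0 below, and of 13 SR splicing factors 10 were above and 0 below. These shares stand beside 41.6% of all 3' UTRs tested. SRSF1 had 37.4, 23 and 16.9 RPM in its 3' UTR in the slices and 61.2 and 191 RPM with HuR, and HNRNPU had 18.5, 6.96 and 5.35 RPM and 51.2 and 181 RPM. In coding sequence 10 of 20 hnRNP genes and 6 of 12 SR genes were below every slice, and 0 of either list were above, beside 37.1% and 0.694% of all coding sequences. The edgeR test called 9 of 20 and 5 of 12 lower than G20, under the 49% of all coding sequences. The 3' UTR share was above every slice in 13 of 16 hnRNP genes, 11 of 11 SR genes and 5 of 5 other ARE-binding proteins, beside 65.4% of all genes compared. Over the whole gene 3 of 22 hnRNP genes (13.6%) and 3 of 13 SR genes (23.1%) were above every slice, and 0 of either were below. Of the 14 other ARE-binding proteins 5 (35.7%) were above and 1 (7.14%) below, beside 33.3% and 8.5% of all genes tested.

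Of the microRNA machinery, 8 of 12 3' UTRs were above every slice, beside 41.6% of all, those of AGO1, AGO2, AGO3, AGO4, DICER1, TNRC6A, TNRC6B and TNRC6C, and 1, that of DROSHA, was below. AGO2, the Argonaute that cleaves its targets, had 15.5, 6.33 and 9.62 RPM in the slices and 21.7 and 69.8 RPM with HuR. TNRC6B, a partner of Argonaute in silencing, had 13.5, 2.32 and 4.99 RPM in the slices and 21 and 65.7 RPM with HuR. The groups did not overlap in either gene, although replicate 1 was closer to G20 than to replicate 2.

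Genes of abundant housekeeping mRNAs were taken next. Of 78 genes of cytosolic ribosomal proteins, the building blocks of the ribosome, 2 were above every slice over the whole gene and 18 were below, beside 33.3% and 8.5% of all genes tested. Most of their reads were intronic, 66.5, 66.5 and 69.4% in the slices and 85.8 and 71.9% with HuR. Their coding sequences were lower than G20 in 48 of 51 cases by edgeR, beside 49% of all coding sequences. Their median log2 was -6.13 beside -3.55 over all coding sequences, and 31 of 51 were below every slice, beside 37.1%. In the 3' UTR 6 of 38 were above every slice and 0 below, beside 41.6% and 2.78% of all 3' UTRs. RPL8 had 175, 2.53 and 9.62 RPM in its coding sequence in the slices and 0.425 and 1.54 RPM with HuR, and RPS6 had 113, 4.43 and 5.35 RPM and 0.319 and 0.675 RPM. Both HuR libraries were under every slice in these genes, and G20 was at least 10 times the other slices. In glycolysis, cytoskeleton and chaperone genes 19 of 23 coding sequences were lower than G20 and 19 of 23 were below every slice, with 0 above. Over all coding sequences these shares were 49%, 37.1% and 0.694%. GAPDH, a glycolytic dehydrogenase, had 71.6, 2.95 and 4.81 RPM in coding sequence in the slices and 0.425 and 1.09 RPM with HuR. Unlike most mRNAs it was low in the 3' UTR too, with 47.9, 1.27 and 2.32 RPM in the slices and 0.106 and 0.0643 RPM with HuR. ENO1 and PKM were also below every slice in the 3' UTR. Of elongation factors and poly(A)-binding proteins 6 of 10 coding sequences were below every slice, and of nucleolar proteins 9 of 14, beside 37.1% of all coding sequences, while 2 of 8 elongation and poly(A)-binding 3' UTRs were above and 0 below. The 3' UTR share was above every slice in 4 of 5 ribosomal protein genes, 4 of 4 elongation genes, 9 of 9 glycolysis, cytoskeleton and chaperone genes and 2 of 3 nucleolar genes, beside 65.4% of all genes compared. Many ribosomal protein genes have near-identical processed pseudogenes, so uniquely mapping reads may be split and their levels are uncertain.

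Replication-dependent histone genes, whose mRNAs end in a stem-loop in place of a poly(A) tail, had the lowest median of the lists with more than 1 tested gene. Of 30 tested genes 16 were below every slice and 1 was above, beside 8.5% and 33.3% of all genes tested. The median log2 over the whole gene was -4.48 against G20, -1.57 against G35 and -1.24 against G45, beside 0.72, 1.48 and 1.46 over all genes tested. The edgeR test called 11 of the 30 lower than G20, beside 0.617% of all genes tested. H4C1 had 40.7, 2.32 and 2.85 RPM in the slices and 0.319 and 0.546 RPM with HuR, with a log2 HuR over G20 of -6.47 ± 1.60 (edgeR adjusted p = 0.025). Near-identical copies of histone genes make the values of single members uncertain. Small nucleolar RNA host genes, which carry these RNAs in their introns, had 0 of 16 above and 4 below every slice, beside 33.3% and 8.5%. GAS5 had 1261, 69.8 and 52.4 RPM in the slices and 7.55 and 20.2 RPM with HuR, but its log2 of -6.50 against G20 did not pass (edgeR adjusted p = 0.0675).

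Zinc finger genes of chromosome 19, a clustered family of transcription factors, many of them KRAB repressors, had the highest median against G20 and G35 of the lists with more than 1 tested gene. Of 224 tested genes 116 were above every slice over the whole gene and 8 were below, which is 51.8% and 3.57% beside 33.3% and 8.5% of all tested genes. Their median log2 was 1.23, 2.50 and 2.41 against G20, G35 and G45, and against G45 the medians of other ARE-binding proteins (2.89), SR splicing factors (2.58) and the microRNA machinery (2.49) were higher. The summed level did not follow, with 11100, 19397 and 14701 RPM in the slices and 5588 and 12065 RPM with HuR. A single member, ZNF229, had 7870, 17422 and 12644 RPM in the slices and 649 and 1650 RPM with HuR, and 99.1% or more of its reads in each library lay at 1 site. ZNF229 was lower than G35 by edgeR, with a log2 of -3.92 ± 0.81 (adjusted p = 0.0068). Of 76 mitochondrial ribosomal protein genes 23 were above and 5 below every slice, and of 14 lncRNAs 5 were above and 0 below. MALAT1, an abundant nuclear lncRNA, had 331, 154 and 142 RPM in the slices and 302 and 1564 RPM with HuR, so that replicate 1 lay between G20 and G35. FTX, a lncRNA of the X inactivation centre, had 95.6, 62.6 and 51.9 RPM in the slices and 289 and 858 RPM with HuR, with no overlap. Of 12 markers of blood, liver, heart, pancreas, endothelium and connective tissue, 1, PTPRC, had enough reads to be tested, and their summed level was between 4.50 and 27.8 RPM in every library.

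**Figure D3:**
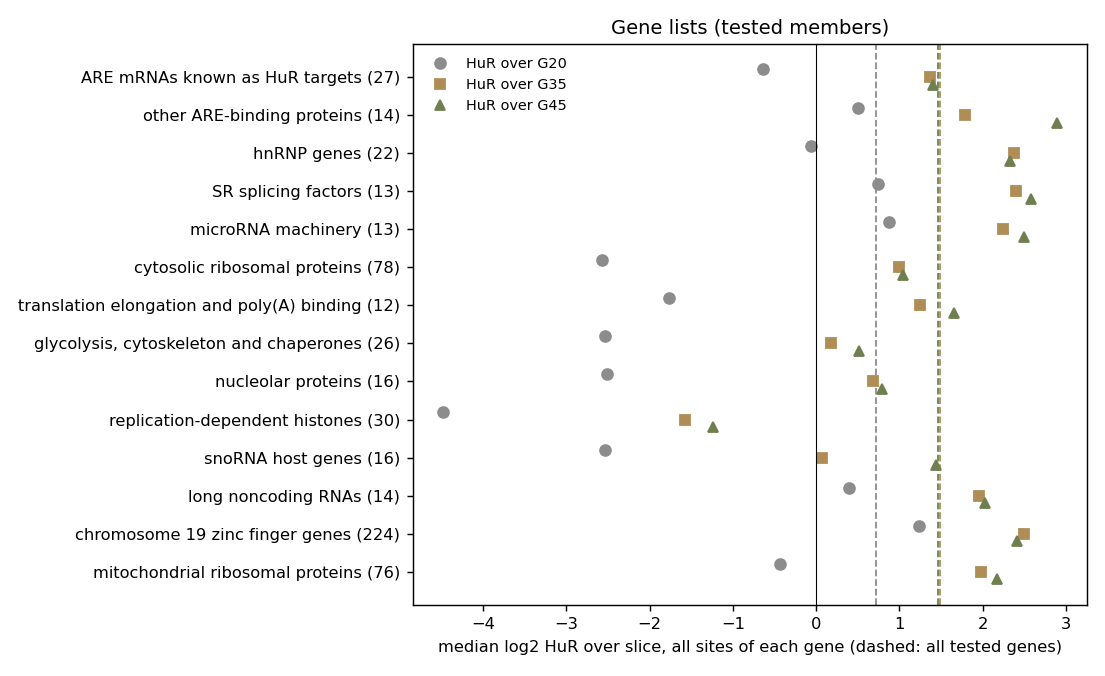
Median log2 HuR over each slice (x axis) over the tested members of each gene list (rows, number tested in brackets), for all reads of a gene. Dashed lines are the medians over all tested genes, 0.72, 1.48 and 1.46 for G20, G35 and G45. Zinc finger genes lie to the right of each line, histone genes lie to the left with -4.48 for G20, and for most lists of abundant mRNAs the G20 point is the lowest.

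When all reads of a gene were counted together, few genes passed. The edgeR test with 1 residual degree of freedom called 0 of 19937 genes (0%) higher in HuR than G20, 0 (0%) higher than G35 and 0 (0%) higher than G45. At an unadjusted p under 0.05 these were 656, 2075 and 1642 genes. Lower in HuR were 123 genes (0.617%) against G20, 5 (0.0251%) against G35 and 1 (0.00502%) against G45. DESeq2 called 869, 512 and 482 lower and 22, 68 and 27 higher, and with reads in genes as the scale edgeR called 1378, 302 and 113 lower and 210, 504 and 127 higher. Counted in introns alone, 4 genes were lower than G20 (0.0229%), 4 lower than G35 (0.0229%) and 2 lower than G45 (0.0114%). The median gene was higher in HuR by 0.72, 1.48 and 1.46 on the log2 scale, and both HuR libraries were above every slice in 6644 genes (33.3%) and below in 1694 (8.5%). With TMM factors these medians became 0.08, 0.17 and 0.07, so the level of the whole distribution rests on the scaling and values are best read relative to it.

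The genes lower than G20 were short, with much of their span in exons. Their median span was 3.38 kb, of which 49.8% was exon, compared to 42.5 kb and 8.21% over all genes tested. Of their summed G20 reads 61.7% were intronic and 15.8% coding, beside 59.3% and 23.9% over all genes tested. With G20 sites of 5 or more reads counted once, 11.1% were intronic and 59.1% coding, beside 33.2% and 42.4%. RPL3, a ribosomal protein gene that hosts small nucleolar RNAs, had 2573, 86.3 and 81.4 RPM in the slices and 5.64 and 17 RPM with HuR, a log2 HuR over G20 of -7.82 ± 1.80 (edgeR adjusted p = 0.016). In G20, 3.49% of its reads were coding and 45.5% lay at 1 site. POU3F1, a transcription factor of the POU family encoded by a single exon, had 62.1, 1.05 and 0.713 RPM in the slices and 0.106 and 0.289 RPM with HuR, a log2 of -8.08 ± 1.86 (edgeR adjusted p = 0.016), and 98.2% of its G20 reads lay at 1 site. GRN, the growth factor progranulin, had 58.5, 5.69 and 3.21 RPM in the slices and 0.106 and 1.03 RPM with HuR, with 92.3% of its G20 reads in coding sequence. SLC25A1, GPX4, MDK, HRAS and HLA-C were called as well, with 11.2 to 40.3 RPM in G20 and at most 0.851 RPM with HuR. In the genes named here G20 exceeded the other slices by 5 times or more.

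The 5 genes lower than G35 were VTN, ENSG00000287838, CST2, AGBL4-IT1 and ZNF229, and the single gene lower than G45 was ENSG00000226542. VTN, which encodes vitronectin, had 24.0 RPM in G35 and between 0.0643 and 0.535 RPM elsewhere, and every one of its G35 reads lay at 1 site. ENSG00000226542 had 26.0 RPM in G45 and at most 4.43 RPM elsewhere, with all G45 reads at 1 site. Other than ZNF229, these genes were thus high in the tested slice and low in the remaining slices as well as in HuR.

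A stricter rule compared extremes, with the lowest HuR library at least 4 times the highest slice, or the reverse. By this rule 182 genes (0.913%) were above and 113 (0.567%) below. Which direction had more genes depended on the scaling, with 9 above and 574 below by TMM factors, and without HuR replicate 1 there were 3399 above and 401 below. The genes above were long, with a median span of 71.7 kb, and the genes below were short, with 15.7 kb. Of the genes below, 37.2% were lncRNAs, compared to 15.9% of the genes above and 27.4% of all tested genes.

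GPR155 had the largest ratio, with 0, 0 and 0.535 RPM in the slices and 37.6 and 9.84 RPM with HuR. Its HuR replicate 1 reads lay at 1 site to 93.5%, compared to 5.56% in replicate 2. SAMD8, a relative of sphingomyelin synthase, had 8.55, 6.96 and 10.7 RPM in the slices and 87.3 and 84.0 RPM with HuR, of which 75.4% and 7.54% lay at 1 site. ATG4C, an autophagy protease, REV1, a translesion DNA polymerase, ZNF674 and PBK, a mitotic kinase, had between 59.1% and 79.5% of their HuR replicate 1 reads at 1 site and under 5% in replicate 2. In these 6 genes the level of replicate 1 thus came largely from a single site. AGPS, an enzyme of ether lipid synthesis, had 8.78, 8.86 and 7.66 RPM in the slices and 62.1 and 172 RPM with HuR, with 1.37% and 1.89% at the top site. TGDS had 3.15, 1.27 and 2.14 RPM in the slices and 21.1 and 63.0 RPM with HuR, and ZNF404 had 1.13, 2.11 and 2.14 RPM and 14.1 and 48.6 RPM. These genes carried their HuR reads over many sites, whereas ALG6, a glucosyltransferase of N-glycosylation, had 24.4% and 6.83% at the top site. Among lncRNAs the leading genes were LINC02506, ENSG00000226281, ENSG00000291067, LINC01355 and JPX. JPX had 43.2, 30.8 and 35.1 RPM in the slices and 206 and 576 RPM with HuR, with 3.61% and 3.78% at the top site, whereas 96.1% of the 541 RPM of ENSG00000291067 in replicate 1 lay at 1 site. None of the genes named here passed the edgeR test. In exonic reads alone SEC22B, PTAR1, ENSG00000291067, ZNF483 and ENSG00000263731 led. SEC22B, a SNARE of transport between the ER and the Golgi, had 6.30, 5.27 and 4.99 exonic RPM in the slices and 39.8 and 38.5 exonic RPM with HuR.

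Introns of these genes held many of the HuR sites. For AGPS, TGDS and ZNF404, the 30 bases at the intron site with the highest level in the lower HuR library are shown, with the same marking and build, since all of them hold a marked motif and had 0 reads in G20 and G35.
AGPS intron, plus strand, chr2:178307781-178307810: tactttctttatctttcTTTTTTTTctagt
TGDS intron, minus strand, chr13:95240810-95240839: ccATTTAagtttcgtgaccatttcctatta
ZNF404 intron, minus strand, chr19:44386771-44386800: tggccaTTTTTTcattcttttaactgaatt
The AGPS site had 8 and 101 reads with HuR and 6 in G45, the TGDS site 6 and 45 reads with HuR and 0 in G45, and the ZNF404 site 8 and 19 reads and 0 in G45. T made up 13 to 21 of the 30 bases. Among the other leading genes, the intron sites of ATG4C, REV1, ALG6 and JPX and the 5' UTR site of GPR155 held neither a run of 5 T nor ATTTA in this window. The ZNF674 intron site held ATTTA but was also read in the slices, with 11, 7 and 12 reads there and 21 and 34 with HuR, and its 21 reads in HuR replicate 1 carried 0 conversion events.

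Genes higher in background mostly had their slice reads concentrated at 1 site. TRIM7, a ubiquitin ligase, had the largest ratio, with 54.9, 57.6 and 27.6 RPM in the slices and 1.60 and 2.47 RPM with HuR, and 98.1 to 99.6% of its slice reads lay at 1 site. CYBA, a subunit of the NADPH oxidase, had 342, 836 and 730 RPM in the slices and 25 and 48.1 RPM with HuR, with 92.4% or more of the slice reads at 1 site. LRRC8A, a subunit of the volume-regulated anion channel, had 407, 875 and 636 RPM in the slices and 44.2 and 64.7 RPM with HuR, with 90.8% or more at 1 site. In these genes the slices differed among themselves, and both HuR libraries were lower than every slice by over 6 times. That ratio is the one the genes were ranked by. SLC25A39, DNAJB13, INTS1, LRRK1 and the lncRNAs ENSG00000259001, MIR663AHG and ENSG00000227227 completed the leading 10, and ENSG00000251294 and ENSG00000267039 the leading lncRNAs. ENSG00000259001 and MIR663AHG were mainly high in G20, with 1374 and 1265 RPM, and both were lower than G20 by edgeR, with a log2 of -7.52 ± 1.96 and -8.08 ± 2.04. In exonic reads TRIM7, LINC01814, ZNF469, FASN and TTC8 led, and of these FASN had its reads spread over sites, with 5.0 to 14.7% of slice reads at the top site.

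In the slices the genes below had more of their reads at 1 site than the genes above. The slices are also the libraries whose high levels defined the genes below. The median share of a gene's reads at its top site was 93.9%, 97.2% and 96.9% in G20, G35 and G45 over the 113 genes below, compared to 25%, 50% and 45.5% over all tested genes. In all slices, 90% or more of the reads lay at 1 site in 54 of the 113 genes (47.8%), in 704 of all 19937 (3.53%) and in 2 of the 182 genes above. In HuR replicate 1, 30.2% of the genes above had 50% or more of their reads at 1 site, beside 20.0% of all tested genes. In replicate 2 these shares were 0.549% and 7.97%. The genes below were at 64.6% and 73.5% in replicates 1 and 2. With the top site of each library left out, 11 genes remained 4 times below, 7 of them among the 113, and 293 were 4 times above, 103 of them among the 182. Without that site the log2 of the mean HuR RPM over the lowest slice changed sign for CYBA, LRRC8A, INTS1, LRRK1, ENSG00000259001, ENSG00000227227, ENSG00000251294 and ENSG00000267039. Such a change means only that the HuR mean rose above the lowest slice, and it need not lie above the others. Whether the reads of the top sites came from the human locus they were placed at was not tested.

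**Figure D4:**
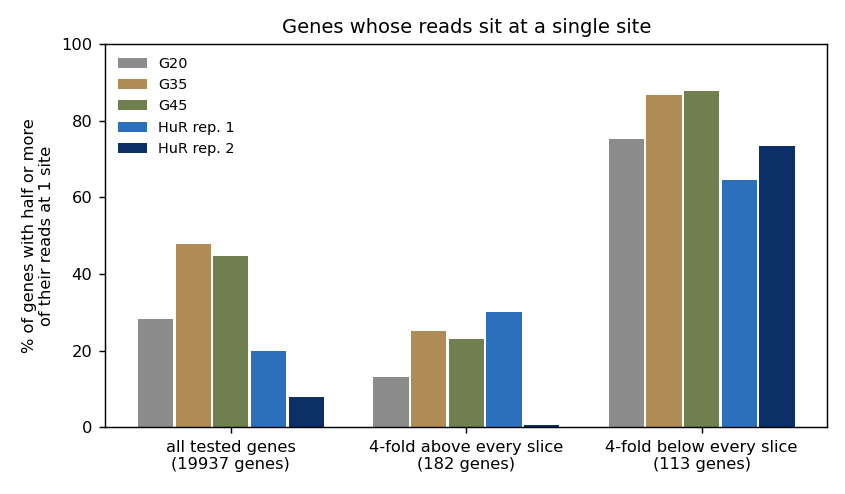
Percent of genes (y axis) with 50% or more of their reads in a library at a single site, for all 19937 tested genes and for the 182 and 113 genes at least 4-fold above or below every slice (x axis). The genes below lie between 64.6 and 87.6% in all 5 libraries, and the genes above are at 30.2% in HuR replicate 1 and 0.55% in HuR replicate 2.

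T-to-C conversions were compared in the 3696 genes with 50 or more reads in each library. The median was 37, 77.8 and 61.7 events per 100 reads in G20, G35 and G45, and 87.1 and 99.3 in HuR replicates 1 and 2. Both HuR libraries were above every slice in 1687 genes (45.6%) and below in 466 (12.6%). RARS1, the cytosolic arginyl-tRNA synthetase, had 18.9, 3.25 and 13 events per 100 reads in the slices and 105 and 96.7 with HuR. NDC80, a kinetochore protein, had 15.4, 20.5 and 8.45 in the slices and 97.5 and 99.6 with HuR. These genes were among those with the widest gap, and the HuR replicates were close to each other. In the other direction KCNMB2, a potassium channel subunit, had 115, 164 and 138 in the slices and 23.9 and 46.9 with HuR, and NRG1, a ligand of ERBB receptors, had 99.4, 94.6 and 94.1 and 22.7 and 38.2. The genes were named by the width of the gap after their values were seen.

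Conversions were also compared in the genes 4-fold above and below. Of the 52 genes above that had enough reads, 29 had more events per 100 reads in both HuR libraries and 0 had fewer, beside 45.6% and 12.6% of all genes compared. Of the 39 genes below, 17 had more events per 100 reads in both HuR libraries and 6 had fewer, which is near the shares of all genes compared. In all slices, 18 of these 39 genes had under 10 events per 100 reads and 9 had over 90, beside 146 and 412 of 3696 genes. CYBA had 1.32, 0.277 and 0.391 events per 100 reads in the slices, and ENSG00000251294 had 99.9, 99.6 and 99.9. Reads of the genes below were thus often nearly free of conversions or nearly all converted.

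Motifs were counted in the 30 bases around the middle of every site with 5 or more reads in the tested genes, on the transcript strand. Windows with TTTTT made up 2.32%, 13.2% and 17.9% of sites in G20, G35 and G45, and 13.9% and 25.3% in HuR replicates 1 and 2. Windows 500 bases upstream held it in 5.95%, 9.29% and 9.66% for the slices and 12.6% and 12.2% for HuR. The slices were therefore spread more widely than the HuR replicates, and G45 lay between the latter. ATTTA, the core of AU-rich elements, was found in 1.25%, 6.03% and 7.74% of slice sites and in 6.80% and 11.1% of HuR sites. GGGG was found in 26.7%, 14.7% and 11.7% of the windows of G20, G35 and G45, and in 9.69% and 7.91% of HuR sites, so each slice was above both HuR libraries. A run of T can overlap a neighbouring ATTTA, and the libraries differ in depth, so the sites of 5 or more reads number between 44080 in G45 and 1404993 in HuR replicate 2.

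**Figure D5:**
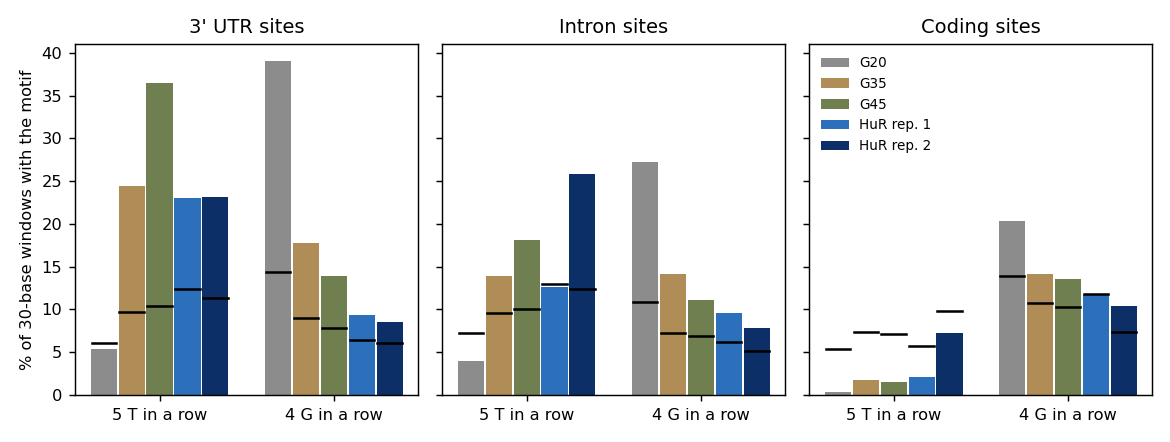
Percent of 30-base windows at sites of 5 or more reads that hold 5 T or 4 G in a row (y axis), in 3' UTRs, introns and coding sequence of all tested genes, with 1 bar per library. Black lines give the same for windows 500 bases upstream, and runs of G are more frequent in G20 than in any other library in each region, whereas in 3' UTRs runs of T reach 36.5% in G45 and 23 and 23.2% in the HuR replicates.

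In 3' UTRs, TTTTT was found in 5.41%, 24.4% and 36.5% of the windows of G20, G35 and G45, and in 23% and 23.2% of HuR sites. HuR thus exceeded G20 alone there, and G45 was the highest library. In introns the values were 3.97%, 13.9% and 18.1% in the slices and 12.7% and 25.8% with HuR, and in coding sequence they were 0.32%, 1.69% and 1.51% in the slices and 2.14% and 7.19% with HuR. Sites in the genes 4-fold below held TTTTT in 0.50%, 3.82% and 1.71% of slice windows, and sites in the genes 4-fold above in 6.73%, 24.8% and 35.5%. Base composition moved with these counts, and T made up 19.6%, 30.6% and 33.3% of the bases in the slices and 34.5% and 38.9% with HuR. The matches describe the windows and were not tested as binding sites.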

How the data were processed

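Per the labels, the libraries were 50 bp single-end small RNA libraries. The authors mapped adapter-trimmed reads to hg19 with Bowtie and ran PARalyzer, which took reads placed at a single locus with at most 2 mismatches, all T to C. The deposited tables of groups give counts per site, namely read counts and conversion event counts, which are not normalized and hold 6187300 to 38644636 reads per library. Versions are not given in the sources used here, and the authors' cluster tables and the total RNA library were not used.

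Each site was assigned by its midpoint and strand to a gene span of GENCODE release 44 mapped to GRCh37, and to coding sequence, UTR, noncoding exon or intron. Sites inside several genes of the same strand went to the only gene with an exon there. Where no such single gene existed they were left out, and these sites held 0.502 to 1.16% of the scaling reads. Values were scaled to reads outside ribosomal RNA loci and the mitochondrial genome. The edgeR 4.0.16 quasi-likelihood test (R 4.3.3) used HuR with 2 libraries and each slice as a group of 1, with 50 or more reads per gene and Benjamini-Hochberg adjustment at 0.05. The spread therefore comes from the HuR replicates alone and the slices are assumed to vary like them. In the main fit and in those within regions the prior degrees of freedom were infinite. The test thus used a spread shared over genes and not each gene's own. SE is the log2 fold change over the square root of F. In ratios of extremes, counts under 3 reads were set to 3. DESeq2 1.42.0 was an alternative. The edgeR fit and the motif search were tested on simulated data, and the assignment of sites to genes was checked on a sample of the real sites. Other steps had no such test. The genes named in full were the 10 with the largest ratio of extremes in each direction, with at least 100 reads in every library of the higher group, the 5 leading lncRNAs and the 5 leading genes in exonic reads. Members of the lists, called genes and leading regions given as examples were chosen after their values were seen. The comparison, its gene lists and its named genes were chosen with earlier results of these data known. Region-wise counts and 3' UTR shares were added after the data were seen. A list member counted in the totals is not reported here by itself. Reads carried no molecular identifiers, so counts cover counting error only.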

Additional observations from a re-analysis of the deposited data

How the results depend on the processing

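The calls over whole genes depended on the scaling and on single sites. Scaling cannot change the 3' UTR share of a gene, and its dependence on single sites was not tested. No paired analysis was possible because only HuR has numbered replicates and each slice is 1 library. The share was above every slice in 638 genes, and in 652 to 749 genes when each library was left out in turn. All 3 contrasts share the HuR libraries, so they are not independent, and the slices have no replicate error of their own. The depth of 4443872 to 5611290 scaling reads per slice puts 3 reads at 0.535 to 0.675 RPM, which limits what can be seen as low in a slice.

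Against G20, G35 and G45 the number of genes called by edgeR was 123, 5 and 1. With TMM factors it was 0, 0 and 0, and the median log2 over all genes moved from 0.72, 1.48 and 1.46 to 0.08, 0.17 and 0.07. Scaled to reads in genes it was 1588, 806 and 240 (210 higher and 1378 lower, 504 and 302, 127 and 113). Without a filter on low counts it was 11 against G35 and 3 against G45. It was 0, 0 and 0 with exonic sites only, 0, 1 and 0 with conversion events in place of reads, and 5023, 1225 and 2059 with each site counted once (1824 higher and 3199 lower, 967 and 258, 1632 and 427). Without the top site of each gene it was 309, 1 and 0. DESeq2 called 891, 580 and 509 genes. With the slices as 1 group of 3 it was 0, with 5344 genes at an unadjusted p under 0.05. The following were chosen after seeing the data: with 3' UTR sites only it was 0, 0 and 0, with coding sites only 2564, 0 and 0, and with intron sites only 4 against G20 and 2 against G45. Against single slices, 2236, 3122 and 3220 genes were 4-fold apart in both HuR libraries, and 4720 to 6631, 4884 to 8469 and 4754 to 9116 with either HuR library left out.

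Genes 4-fold above every slice numbered 182. They were 9 with TMM factors, 74 scaled to reads in genes, 28 with exonic sites, 1684 with conversion events, 0 with each site counted once, 293 without the top site, 0 in coding sequence, 679 in introns, 2345 at 2-fold and 4 at 8-fold. Leaving out a library gave 261 to 3399, with 3399 without HuR replicate 1, 847 without HuR replicate 2 and 1186 without G20. Genes 4-fold below numbered 113. They were 574 with TMM factors, 286 scaled to reads in genes, 11 without the top site, 16 in 3' UTRs, 273 in coding sequence, 588 at 2-fold and 9 at 8-fold, and 169 to 437 with a library left out, with 437 without HuR replicate 2 and 401 without HuR replicate 1. The cause of these shifts was not tested.

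Within regions, all alternatives were chosen after seeing the data. Coding sequences called against G20, 2564 in number, were 0 with TMM factors and 35 with DESeq2. The 3' UTRs called against G20, 0 in number, were 37 scaled to reads in genes, all lower, and 224 with DESeq2, of which 222 were lower. The 2875 3' UTRs above every slice (41.6%) were 1750 with TMM factors (25.3%), 232 of 2194 with each site counted once (10.6%) and 2951 to 5206 with a library left out. The 1926 coding sequences below (37.1%) were 3105 with TMM factors (59.8%), 642 of 703 with each site counted once (91.3%) and 1938 to 2756 with a library left out. Genes with fewer conversions per 100 reads in both HuR libraries, 12.6%, were 22.6% at a minimum of 200 reads and 2.03% in exonic sites. With sites of 5 or more reads counted once, the mean intron percent in HuR was 84.5 in place of 83.5 over all genes and 84.8 in place of 96.8 in the genes below, whose 3' UTR percent was 6.21 in place of 1.05.

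For named genes above, the log2 was that of the mean HuR RPM over the highest slice, and for genes below over the lowest. This log2 changed sign in 15 cases, which means only that the HuR mean crossed that slice. With exonic sites it became -1.19 for ATG4C, -1.30 for REV1, 0.37 for CYBA and 1.08 for LRRC8A. Without the top site it became 2.22 for ENSG00000259001, 0.65 for CYBA, 0.39 for ENSG00000227227, 0.025 for INTS1, 1.75 for LRRC8A, 0.061 for LRRK1, 1.02 for ENSG00000251294 and 0.89 for ENSG00000267039. With conversion events it became 0.70 for LRRC8A and 0.24 for ENSG00000267039, and with each site counted once -0.32 for ENSG00000226281.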
